A study of Saccharomyces cerevisiae with 12 samples.

Results

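The autophagy genes described here were the genes of the deposited tables whose name is ATG followed by a number, which gave 34 genes of the 6078 named in any of the 4 tables. All 34 were listed in every table and passed the minimum on low values. RNA was sequenced in 12 libraries from the budding yeast Saccharomyces cerevisiae in the laboratory strain BY4741, a haploid of mating type a with the markers his3Δ1, leu2Δ0, met15Δ0 and ura3Δ0, grown in the rich medium YPD at 30 °C. They formed 4 groups of 3 libraries, which were hypoxic set4Δ cells, hypoxic wild-type (WT) cells, aerobic set4Δ cells and aerobic WT cells. In set4Δ cells the gene SET4, which codes for a chromatin protein with a SET domain, was replaced by the marker HIS3MX, so that loss of SET4 and gain of the marker cannot be told apart. Hypoxic cultures were grown to mid-log phase over 18 h in sealed anaerobe pouches and aerobic cultures to mid-log phase in air, so that low oxygen and the other conditions of growth in a pouch cannot be told apart. The study asked how Set4 shapes expression in both settings.

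Autophagy encloses cytoplasm in a membrane with a double layer, the autophagosome, and delivers it to the vacuole, where the content is broken down and reused. In yeast the Atg1 kinase complex starts the process when the nutrient kinase TORC1 is inactive, vesicles with Atg9 and a phosphatidylinositol 3-kinase build the membrane, and a pair of ubiquitin-like conjugation systems attach Atg8 to it. Receptors that bind Atg8 or Atg11 choose cargo such as mitochondria, peroxisomes or endoplasmic reticulum, and in rich medium the same machinery carries vacuolar enzymes to the vacuole by the cytoplasm-to-vacuole (Cvt) route.

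Hypoxia was accompanied by higher RNA of most autophagy genes in both genotypes. In set4Δ cells 15 of 34 members rose at least 2-fold and 1 fell, where 18.6% of all genes rose and 15.5% fell. In WT cells 14 members rose and 1 fell, where 18.1% of all genes rose and 14.4% fell. The largest rises were those of the cargo receptor gene ATG39, the Atg9 factor gene ATG41 and the kinase gene ATG1, and the fall was that of ATG27. Between set4Δ and WT cells 0 of 34 members passed the test in hypoxia, where 0.817% of all genes were called higher and 0.391% lower. In air 0 members passed too, where only 0.0172% of all genes were called higher and 0.0344% lower in set4Δ cells. With the replicate number fitted as a block, 238 of 5875 genes were called higher in hypoxic set4Δ cells and 198 lower, and 0 members.

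The DNA before the start codons of the 3 genes with the largest rises, of ATG8 and of ATG27, the one called lower, is shown so that the regulatory letters can be read beside their values. Each stretch runs from 300 to 101 bases before the start codon, 5′ to 3′ on the strand of the gene, and was read from the RefSeq R64 genome. The 100 bases next to the start codon, which can belong to the transcript, are not printed. Capitals mark the words AGGGG (the stress response element bound by Msn2, Msn4, Gis1 and Rph1), GATAAG (bound by the GATA factors Gln3 and Gat1), TGACTC (bound by Gcn4) and GGCGGC (the core of URS1, bound by Ume6) on either strand.
ATG39 (chrXII:758934-759133, minus strand): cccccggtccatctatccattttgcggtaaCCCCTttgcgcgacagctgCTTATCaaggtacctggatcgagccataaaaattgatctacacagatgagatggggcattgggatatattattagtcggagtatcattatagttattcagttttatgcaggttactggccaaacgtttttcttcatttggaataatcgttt
ATG41 (chrXVI:74820-75019, minus strand): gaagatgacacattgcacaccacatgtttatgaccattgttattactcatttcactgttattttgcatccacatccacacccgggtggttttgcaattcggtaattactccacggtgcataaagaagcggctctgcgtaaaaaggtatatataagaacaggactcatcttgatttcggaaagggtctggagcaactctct
ATG1 (chrVII:159765-159964, plus strand): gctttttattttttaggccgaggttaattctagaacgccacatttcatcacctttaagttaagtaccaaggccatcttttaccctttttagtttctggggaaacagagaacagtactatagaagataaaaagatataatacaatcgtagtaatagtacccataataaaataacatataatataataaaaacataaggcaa
ATG8 (chrII:80832-81031, minus strand): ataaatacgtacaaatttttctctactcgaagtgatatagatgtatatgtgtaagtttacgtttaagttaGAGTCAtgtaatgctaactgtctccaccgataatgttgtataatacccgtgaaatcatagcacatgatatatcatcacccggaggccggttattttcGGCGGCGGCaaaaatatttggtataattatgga
ATG27 (chrX:90198-90397, minus strand): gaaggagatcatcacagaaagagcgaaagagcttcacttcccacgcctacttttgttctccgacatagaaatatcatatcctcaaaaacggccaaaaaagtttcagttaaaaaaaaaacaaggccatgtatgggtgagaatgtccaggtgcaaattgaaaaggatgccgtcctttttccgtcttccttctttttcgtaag

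ATG39 held CCCCT, the other strand of AGGGG, and CTTATC, the other strand of GATAAG, within a short distance of each other. ATG8 held overlapping copies of the URS1 core and 1 GAGTCA, the other strand of TGACTC, and its AGGGG and GATAAG words lie in the 100 bases that are not printed. No capitals stand in the stretches of ATG41, ATG1 and ATG27, and these words do not occur anywhere in the 300 bases before their start codons. In the same 300 bases, with both strands searched, GATAAG stood before 12 of the 34 members (35.3%), against 14.6% of 6020 protein-coding genes. AGGGG stood before 10 members (29.4%, against 22.2% of all genes), TGACTC before 4 (11.8%, against 7.74%) and GGCGGC before 2, ATG8 and ATG19 (5.88%, against 5.18%). Among words bound by oxygen regulators, ATTGTT, the core bound by the hypoxic repressor Rox1, stood before 10 members (29.4%, against 34.1%), and TCGTATA, the core bound by the sterol regulator Upc2, before 0 members (against 4.6%). No overlap between different words was found in the stretches printed. Such matches describe letters and do not show that a factor binds there.

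Each library held 18786176 to 27572406 reads assigned to the listed genes, and the member with the fewest reads in a library, ATG10, had 56 there. SET4 itself held 21.2, 16.6 and 26.0 normalized counts (reads divided by a size factor for each library) in hypoxic set4Δ libraries and 0, 3.78 and 0 in aerobic ones, against 5291, 4898 and 8574 in hypoxic WT libraries and 161, 217 and 199 in aerobic ones. Of 7 genes known to rise without oxygen, 6 passed the test upward in each genotype, and AAC3 did not. Of 4 genes known to be higher in air, HYP2 was called lower in hypoxia at 2-fold in both genotypes, and at any size 2 passed downward in set4Δ cells and 3 in WT cells, where COX5A passed upward with 0.33 on the log2 scale. The receptor gene of a cells, STE2, held at least 3482 normalized counts in each library and that of alpha cells, STE3, at most 51.1. The third hypoxic library of each genotype stood apart from the others of its group, and their deviations from the group means correlated with a coefficient of 0.745 over 5558 genes, which are not independent replicates. That coefficient was 0.732 for the second hypoxic libraries and 0.03 for the first. The values of ATG1 and ATG41 lean on the third libraries and are given with and without them. The first aerobic WT library was the lowest of its group for 23 of the 33 members with a mean of at least 100.

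Normalized counts were scaled separately for each table. Fold changes are differences of log2(normalized count + 1), so that 1 is a doubling. A gene was called when its adjusted p in limma was at most 0.05 over all genes of the table and, for the responses to hypoxia, when its log2 fold change was also at least 1 in size. The members were read against all genes of the same table, 6058 in set4Δ cells and 6033 in WT cells. Without the third hypoxic library of each genotype 15 members were called higher and 1 lower in set4Δ cells, and 14 higher and 1 lower in WT cells. The median log2 fold change of the members was 0.86 in set4Δ cells and 0.85 in WT cells, and that of all genes 0.01 in both. Of any size, 28 of 34 members passed upward and 1 downward in each genotype, beside 39.6% of all genes upward and 39.8% downward in set4Δ cells and 40.0% upward and 39.5% downward in WT cells. With quantile normalization in place of size factors these counts were 27 upward and 3 downward in set4Δ cells and 23 upward and 3 downward in WT cells. The 3 hypoxic values lay above all 3 aerobic values for 30 members in set4Δ cells, where this held for 41.7% of all genes, and for 28 members in WT cells, where it held for 41.3%. They lay below all aerobic values for ATG16 and ATG27 in set4Δ cells, beside 41.2% of all genes, and for ATG27 in WT cells, beside 41.4%. Nothing in the labels says that the libraries of a group came from separate cultures, so that the p-values measure the spread between these libraries. In RNA of whole cultures, more cells that express a gene and more RNA per cell cannot be told apart, and breakdown of cargo was not measured.

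**Figure D1:**
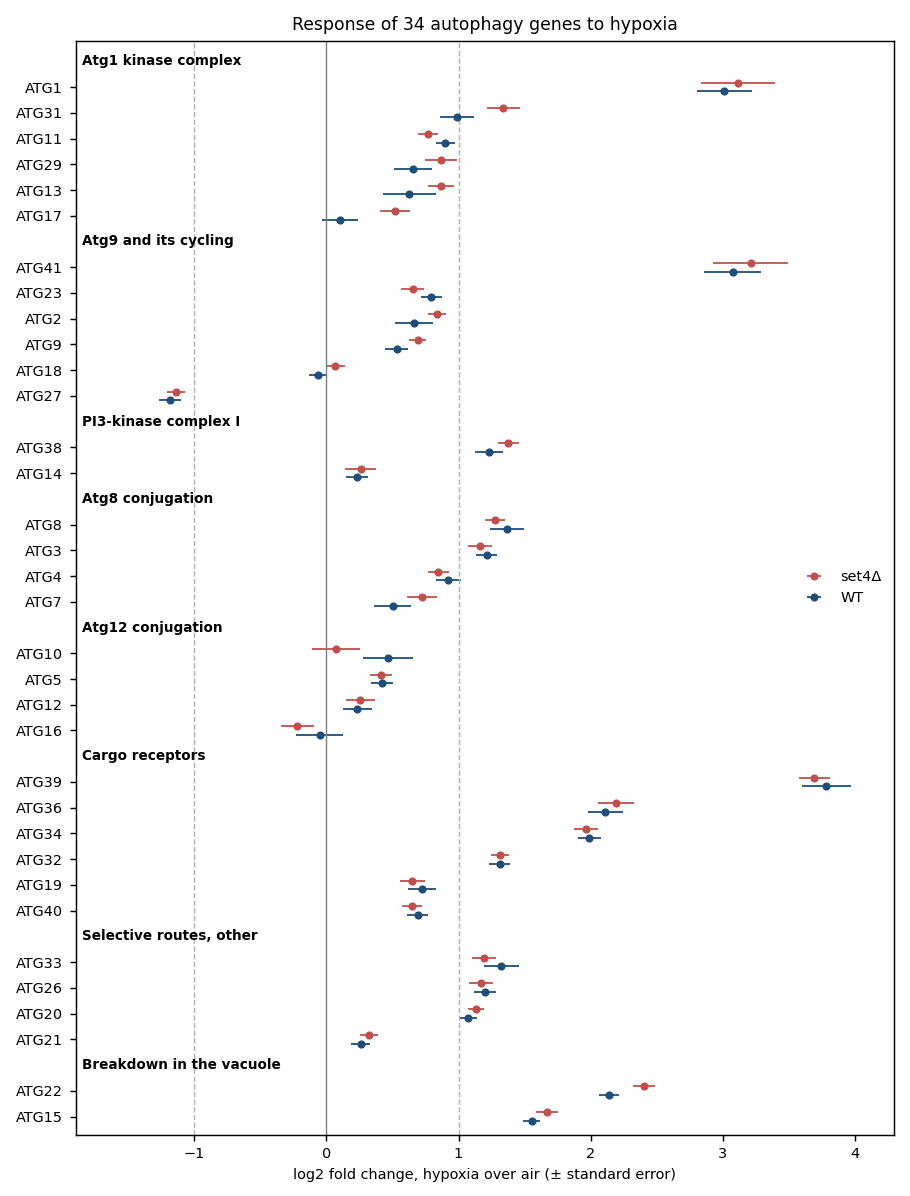
Log2 fold change of each of the 34 autophagy genes, hypoxia over air, with its standard error (n = 3 libraries a group), in set4Δ cells (red, upper point) and WT cells (blue, lower point), ordered by role. Dashed lines mark a doubling and a halving, and ATG27 is the point left of the lower line in both genotypes, at -1.14 in set4Δ cells and -1.18 in WT cells.

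The Atg1 kinase complex starts autophagosome formation. All 6 of its members rose in set4Δ cells and 5 of 6 in WT cells, at any size. The rise was at least 2-fold for ATG1 and ATG31 in set4Δ cells and for ATG1 in WT cells. Of all genes, 39.6% rose at any size in set4Δ cells and 40.0% in WT cells, and 18.6% and 18.1% at least 2-fold. Under quantile normalization ATG17 no longer passed in set4Δ cells, and in WT cells ATG13 and ATG29 no longer passed and ATG17 passed downward. ATG1, the kinase, held 10951, 10612 and 4989 normalized counts in hypoxic set4Δ libraries, against 1037, 919 and 935 in aerobic ones, and 7584, 10987 and 5739 in hypoxic WT libraries, against 891, 963 and 1057 in aerobic ones. Every hypoxic library lay several-fold above every aerobic library, and the third hypoxic library was the lowest in both genotypes. The log2 fold change of ATG1 was 3.11 (SE 0.28, adjusted p = 2.3e-05 in limma) in set4Δ cells and 3.01 (SE 0.21, adjusted p = 3.3e-06 in limma) in WT cells. Without the third hypoxic library it was 3.48 in set4Δ cells and 3.24 in WT cells.

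ATG31 codes for the subunit that links Atg17 and Atg29 in the scaffold of the complex. It held 512, 494 and 479.7 normalized counts in hypoxic set4Δ libraries, against 162, 224 and 204 in aerobic ones, and 353, 459.6 and 456 in hypoxic WT libraries, against 194, 214 and 228 in aerobic ones. The groups did not overlap in either genotype, and the fold change was 1.34 (SE 0.13, adjusted p = 3.0e-05 in limma) in set4Δ cells and 0.99 (SE 0.13, adjusted p = 0.00014 in limma) in WT cells. ATG31 was thus the only member called at 2-fold in 1 genotype alone, and it fell just short of the line in WT cells, while the difference of its responses was 0.35 (95% interval -0.06 to 0.76, adjusted p = 0.51 in limma).

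ATG17, the scaffold protein itself, held 217, 222 and 237 normalized counts in hypoxic set4Δ libraries, against 150.2, 181 and 143 in aerobic ones, and 212, 203 and 168 in hypoxic WT libraries, against 165, 207 and 170.5 in aerobic ones. Hypoxic libraries lay above aerobic ones in set4Δ cells and overlapped with them in WT cells. Its fold change was 0.52 (SE 0.12, adjusted p = 0.0038 in limma) in set4Δ cells and 0.10 (SE 0.14, adjusted p = 0.5 in limma) in WT cells. The responses differed by 0.42 (95% interval 0.04 to 0.80, adjusted p = 0.37 in limma), which did not pass the test. Without the third hypoxic libraries the responses of ATG17 differed by 0.29 (95% interval -0.11 to 0.68, adjusted p = 0.44 in limma). ATG29, the third scaffold subunit, held 367, 322 and 286 normalized counts in hypoxic set4Δ libraries, against 186, 161 and 185 in aerobic ones, and 301, 333 and 247 in hypoxic WT libraries, against 159, 201 and 198 in aerobic ones. Both groups were separate in both genotypes, with fold changes of 0.87 in set4Δ cells and 0.66 in WT cells. ATG29 shares 24 bases with SET6 on the opposite strand, and the sources used here do not say whether reads there were assigned by strand.

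ATG13 codes for the subunit whose phosphorylation by TORC1 keeps the complex inactive. It held 583, 649 and 514 normalized counts in hypoxic set4Δ libraries, against 313, 325 and 311 in aerobic ones, and 534, 573 and 349 in hypoxic WT libraries, against 255, 358 and 317 in aerobic ones. The third hypoxic WT library lay within the aerobic range, and the other groups were separate, with fold changes of 0.87 in set4Δ cells and 0.63 in WT cells. ATG11, the scaffold of selective autophagy that joins receptors to the kinase, held 1289, 1309.9 and 1329.8 normalized counts in hypoxic set4Δ libraries, against 699, 805 and 802 in aerobic ones, and 1395, 1359 and 1526 in hypoxic WT libraries, against 725, 772 and 793 in aerobic ones. It rose in both without overlap, by 0.77 in set4Δ cells and 0.90 in WT cells on the log2 scale.

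Atg9 is the membrane protein whose vesicles seed the autophagosome, and the members that serve it went separate ways. ATG41, which codes for a protein needed for the movement of Atg9, held 13630.2, 13000.3 and 6345 normalized counts in hypoxic set4Δ libraries, against 1069.5, 1329.9 and 992 in aerobic ones, and 9152, 12601 and 7621 in hypoxic WT libraries, against 897, 1467 and 1113 in aerobic ones. Hypoxic libraries lay far above aerobic ones, with the third the lowest in both genotypes. Its log2 fold change was 3.21 (SE 0.28, adjusted p = 2.1e-05 in limma) in set4Δ cells and 3.08 (SE 0.22, adjusted p = 3.8e-06 in limma) in WT cells, and without the third hypoxic library 3.57 in set4Δ cells and 3.24 in WT cells.

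ATG27, which codes for a membrane protein that helps to bring Atg9 from the Golgi and endosomes, was the one member called lower at any size with the deposited scaling. Under quantile normalization ATG10 and ATG16 were also lower in set4Δ cells, and ATG16 and ATG17 in WT cells. ATG27 held 874, 957 and 921 normalized counts in hypoxic set4Δ libraries, against 1946, 1976 and 2145 in aerobic ones, and 853, 855 and 989.7 in hypoxic WT libraries, against 2188, 1959 and 1982 in aerobic ones. All hypoxic values lay at about the same low level and none reached the aerobic range. The log2 fold change was -1.14 (SE 0.07, adjusted p = 3.9e-06 in limma) in set4Δ cells and -1.18 (SE 0.08, adjusted p = 3.8e-06 in limma) in WT cells.

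ATG9, ATG2 and ATG23 rose at any size in both genotypes. ATG9 rose by 0.69 in set4Δ cells and 0.53 in WT cells on the log2 scale, ATG2, which codes for the lipid transfer protein at the edge of the membrane, by 0.84 in set4Δ cells and 0.66 in WT cells, and ATG23, which codes for a peripheral factor of Atg9 vesicles, by 0.65 in set4Δ cells and 0.79 in WT cells. ATG18, which codes for the partner of Atg2 that binds phosphatidylinositol 3-phosphate, did not pass the test in either genotype. It held 1254, 1239 and 1337 normalized counts in hypoxic set4Δ libraries, against 1262, 1129.5 and 1266 in aerobic ones, and 1166, 1066 and 1099 in hypoxic WT libraries, against 1145, 1179 and 1164 in aerobic ones. The groups overlapped in both genotypes, with fold changes of 0.07 in set4Δ cells and -0.07 in WT cells.

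The phosphatidylinositol 3-kinase complex of autophagy has a pair of subunits with ATG names in the tables. ATG38, which codes for the subunit that holds the complex together, rose by 1.38 in set4Δ cells and 1.23 in WT cells, and ATG14, which codes for the subunit that directs the complex to autophagy, had fold changes of 0.26 in set4Δ cells and 0.23 in WT cells. ATG14 passed the test in WT cells, with an adjusted p of 0.033 from limma, and missed it in set4Δ cells, with 0.08, while its responses differed by 0.03 (95% interval -0.29 to 0.34, adjusted p = 0.97 in limma). Under quantile normalization its fold change turned negative in both genotypes, with -0.05 in set4Δ cells and -0.14 in WT cells, and did not pass.

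All 4 members of the Atg8 conjugation system rose at any size, ATG8 and ATG3 by more than 2-fold. Of all genes, 39.6% rose at any size in set4Δ cells and 40.0% in WT cells, and 18.6% and 18.1% at least 2-fold. Under quantile normalization ATG7 no longer passed in WT cells and ATG3 fell short of 2-fold in both genotypes. ATG8 codes for the ubiquitin-like protein that is bound to the membrane lipid and holds cargo receptors. It held 764, 731 and 766 normalized counts in hypoxic set4Δ libraries, against 329, 304 and 299 in aerobic ones, and 781, 795 and 816 in hypoxic WT libraries, against 257, 369.5 and 310.3 in aerobic ones. Hypoxic libraries were all at about the same level, well above the aerobic ones, which were more spread out in WT cells. The fold change was 1.28 (SE 0.07, adjusted p = 2.6e-06 in limma) in set4Δ cells and 1.37 (SE 0.13, adjusted p = 2.0e-05 in limma) in WT cells.

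ATG3, the conjugating enzyme of Atg8, held 661, 632 and 646 normalized counts in hypoxic set4Δ libraries, against 319, 265 and 283 in aerobic ones, and 636, 698 and 604 in hypoxic WT libraries, against 277, 284 and 272 in aerobic ones, with fold changes of 1.16 in set4Δ cells and 1.21 in WT cells. ATG4, the protease that trims Atg8 and frees it again, held 666, 683 and 597 normalized counts in hypoxic set4Δ libraries, against 369.9, 353 and 356 in aerobic ones, and 700.2, 663 and 594 in hypoxic WT libraries, against 313, 371 and 346 in aerobic ones, with fold changes of 0.85 in set4Δ cells and 0.92 in WT cells. ATG7, the activating enzyme of both conjugation systems, held 824, 756 and 613 normalized counts in hypoxic set4Δ libraries, against 431, 448 and 436 in aerobic ones, and 651, 686 and 517 in hypoxic WT libraries, against 367, 472 and 469 in aerobic ones, with fold changes of 0.72 in set4Δ cells and 0.50 in WT cells. Hypoxic and aerobic libraries were separate for all 3 genes in both genotypes, and ATG7 moved the least.

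The Atg12 system joins Atg12 to Atg5 and so guides the attachment of Atg8. None of its 4 members was called at 2-fold, beside 18.6% of all genes higher in set4Δ cells and 18.1% in WT cells. ATG5, the acceptor of Atg12, was the only one of the 4 to pass the test at any size, with a fold change of 0.41 (SE 0.09, adjusted p = 0.0024 in limma) in set4Δ cells and 0.42 (SE 0.08, adjusted p = 0.0014 in limma) in WT cells. ATG12, the ubiquitin-like protein, had 0.26 in set4Δ cells and 0.23 in WT cells on the log2 scale, and ATG10, its conjugating enzyme, 0.07 in set4Δ cells and 0.46 in WT cells. ATG16, which pairs the conjugates, held 125, 119.6 and 104 normalized counts in hypoxic set4Δ libraries, against 132, 126 and 148 in aerobic ones, and 123, 153 and 108 in hypoxic WT libraries, against 113, 128 and 158 in aerobic ones. These values were separate, though close, in set4Δ cells and overlapped in WT cells, and the fold changes of -0.22 in set4Δ cells and -0.05 in WT cells did not pass the test.

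Cargo receptors decide what is taken up. All 6 with an ATG name in the tables rose at any size in both genotypes, 4 of them by more than 2-fold. Of all genes, 39.6% rose at any size in set4Δ cells and 40.0% in WT cells, and 18.6% and 18.1% at least 2-fold. The median log2 fold change of the 6 receptor genes was 1.64 in set4Δ cells and 1.65 in WT cells. ATG39, which codes for the receptor for the endoplasmic reticulum around the nucleus, held 1468, 1288 and 1177 normalized counts in hypoxic set4Δ libraries, against 106, 88.8 and 106 in aerobic ones, and 1248, 1294 and 950.4 in hypoxic WT libraries, against 75.0, 69.6 and 108 in aerobic ones. Every hypoxic library lay far above every aerobic one. The log2 fold change of ATG39 was 3.69 (SE 0.11, adjusted p = 1.7e-07 in limma) in set4Δ cells and 3.79 (SE 0.19, adjusted p = 6.1e-07 in limma) in WT cells, that is 12.9-fold in set4Δ cells and 13.8-fold in WT cells. ATG40, which codes for the receptor for the outer and tubular parts of the same organelle, held 439.5, 426 and 426 normalized counts in hypoxic set4Δ libraries, against 281, 264 and 279 in aerobic ones, and 459, 421 and 434 in hypoxic WT libraries, against 263, 270.2 and 279.6 in aerobic ones. It was separate in both genotypes and moved far less, by 0.65 in set4Δ cells and 0.69 in WT cells on the log2 scale.

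ATG36 codes for the peroxisome receptor. It held 963, 926 and 698 normalized counts in hypoxic set4Δ libraries, against 199, 170.1 and 190.4 in aerobic ones, and 742, 795 and 625 in hypoxic WT libraries, against 140.2, 175 and 183 in aerobic ones. The third hypoxic library was again the lowest in both genotypes, and still several-fold above the aerobic ones. ATG36 had a fold change of 2.19 (SE 0.14, adjusted p = 3.6e-06 in limma) in set4Δ cells and 2.11 (SE 0.13, adjusted p = 2.0e-06 in limma) in WT cells. ATG32, which codes for the mitochondrial receptor, held 918, 935 and 867 normalized counts in hypoxic set4Δ libraries, against 355, 369.6 and 369 in aerobic ones, and 884, 913 and 821 in hypoxic WT libraries, against 340.3, 342 and 372 in aerobic ones. The libraries of each group lay close together and the groups far apart, with a fold change of 1.31 (SE 0.07, adjusted p = 1.6e-06 in limma) in set4Δ cells and 1.31 (SE 0.08, adjusted p = 1.5e-06 in limma) in WT cells.

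ATG19 and ATG34 code for related receptors of vacuolar enzymes, Atg19 for the Cvt route in growing cells and Atg34 for alpha-mannosidase in starved cells. ATG34 held 559, 516 and 577 normalized counts in hypoxic set4Δ libraries, against 141, 149 and 131 in aerobic ones, and 622, 593 and 554 in hypoxic WT libraries, against 148, 142 and 153 in aerobic ones. ATG19 held 1328, 1197 and 1418 normalized counts in hypoxic set4Δ libraries, against 858, 901 and 753 in aerobic ones, and 1277, 1300.0 and 1102 in hypoxic WT libraries, against 654, 835 and 746 in aerobic ones. Both genes were separate between air and hypoxia, ATG34 by a wide margin, with a fold change of 1.96 (SE 0.09, adjusted p = 9.5e-07 in limma) in set4Δ cells and 1.99 (SE 0.09, adjusted p = 3.5e-07 in limma) in WT cells, and ATG19 by less, with 0.65 (SE 0.10, adjusted p = 0.00039 in limma) in set4Δ cells and 0.72 (SE 0.11, adjusted p = 0.00034 in limma) in WT cells. Neither gene has a stretch of 50 bases that occurs more than once in the genome, and the same was true of all other members.

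**Figure D2:**
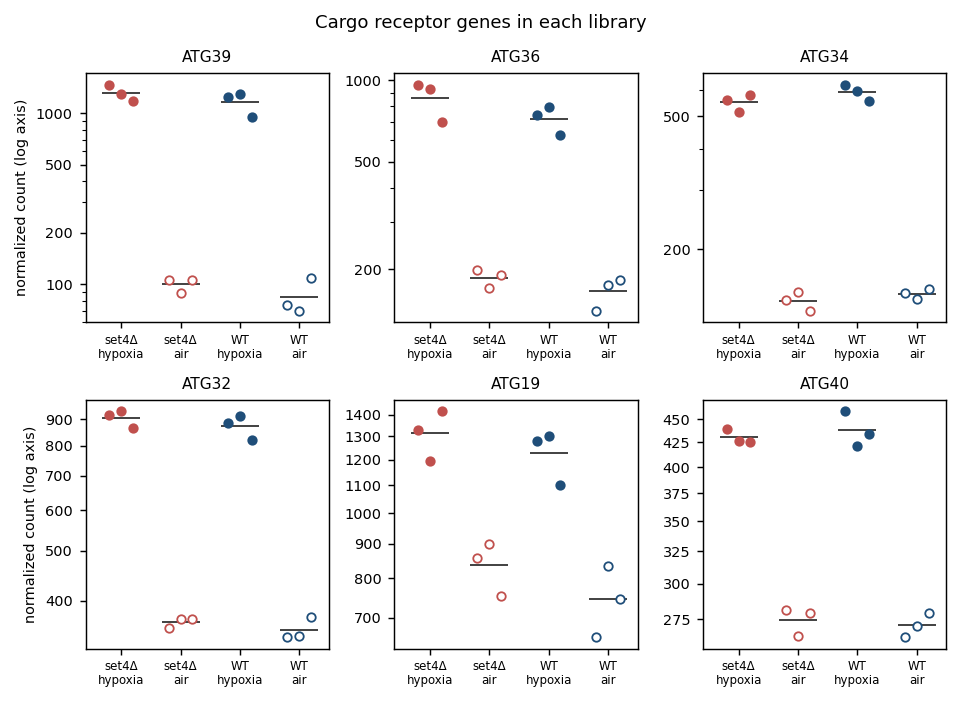
Normalized counts (log axis, a separate range for each gene) of the 6 cargo receptor genes in each library, for hypoxic (filled) and aerobic (open) libraries of set4Δ cells (red) and WT cells (blue), with the mean of 3 libraries as a bar. The genotypes were scaled in separate tables. For all 6 genes each hypoxic library lies above each aerobic one, with the widest gap for ATG39, which lay between 950.4 and 1468 in hypoxia.

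Of the other members of selective routes, 3 of 4 rose by more than 2-fold in both genotypes. Such a rise was called for 18.6% of all genes in set4Δ cells and 18.1% in WT cells. ATG33, which codes for a mitochondrial outer membrane protein of mitophagy, rose by 1.19 in set4Δ cells and 1.32 in WT cells on the log2 scale. ATG26, which codes for a sterol glucosyltransferase that serves the breakdown of peroxisomes in the yeast Pichia pastoris, rose by 1.17 in set4Δ cells and 1.20 in WT cells, and ATG20, which codes for the sorting nexin of the Cvt route that pairs with Snx4, by 1.13 in set4Δ cells and 1.07 in WT cells. ATG21, which codes for a relative of Atg18 in the Cvt route, passed only at any size, with 0.33 in set4Δ cells and 0.26 in WT cells.

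At the end of the route, both members of the vacuole rose by more than 2-fold. Such a rise was called for 18.6% of all genes in set4Δ cells and 18.1% in WT cells. ATG22, which codes for a vacuolar exporter of amino acids, held 4029, 3749.9 and 4389 normalized counts in hypoxic set4Δ libraries, against 708, 803 and 781 in aerobic ones, and 3643, 3542 and 4065 in hypoxic WT libraries, against 850.1, 897 and 803 in aerobic ones. Here the third hypoxic library was the highest in both genotypes, unlike for ATG1 and ATG41. The fold change was 2.41 (SE 0.08, adjusted p = 2.7e-07 in limma) in set4Δ cells and 2.14 (SE 0.08, adjusted p = 1.6e-07 in limma) in WT cells, and the responses differed by 0.27 (95% interval 0.03 to 0.51, adjusted p = 0.37 in limma), which did not pass. ATG15, which codes for the lipase that opens autophagic bodies in the vacuole, rose by 1.67 (SE 0.08, adjusted p = 1.1e-06 in limma) in set4Δ cells and 1.55 (SE 0.07, adjusted p = 3.2e-07 in limma) in WT cells on the log2 scale.

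**Figure D3:**
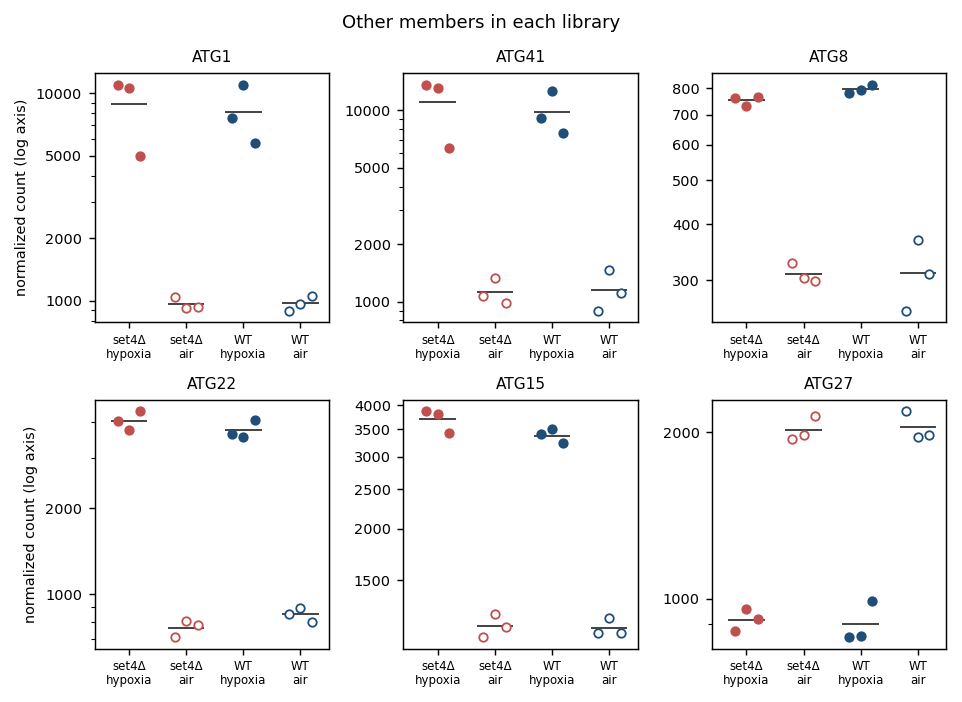
Normalized counts (log axis, a separate range for each gene) of ATG1, ATG41, ATG8, ATG22, ATG15 and ATG27 in each library, drawn as for the cargo receptors, with the mean of 3 libraries as a bar. ATG27 is the only gene of the 6 with aerobic libraries above the hypoxic ones, and the third point of the hypoxic groups is low for ATG1 and ATG41, at 4989 in set4Δ cells and 5739 in WT cells for ATG1.

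To compare levels between members, reads were divided by coding length and by library size over all 12 libraries, in RPKM. ATG41 had the highest level in each of the 4 groups, with 1175 ± 435 RPKM in hypoxic set4Δ cells, against 118 ± 17.0 in aerobic ones, and 1071 ± 279.9 RPKM in hypoxic WT cells, against 124 ± 31.0 in aerobic ones (SD, n = 3 each). In air ATG27 was second and lay within the spread of ATG41, with 106 ± 6.71 RPKM in set4Δ cells and 110.4 ± 6.33 in WT cells. In hypoxia ATG27 was eighth in both genotypes, and the second level was that of ATG1, with 144 ± 55.1 RPKM in set4Δ cells and 135 ± 44.5 in WT cells, whose spread took in the next levels of ATG22, ATG15 and ATG8. ATG39 was last of 34 in air, with 3.60 ± 0.393 RPKM in set4Δ cells and 3.11 ± 0.788 in WT cells, and reached 48.1 ± 5.58 RPKM in set4Δ cells and 43.7 ± 6.99 in WT cells in hypoxia, the ninth level in set4Δ cells and the twelfth in WT cells.

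The spread between libraries of a group, as the SD of log2 values over the 33 members with a mean of at least 100, had a median of 0.09 in hypoxic set4Δ libraries (0.12 over all genes with such a mean), 0.09 in aerobic set4Δ libraries (0.08), 0.12 in hypoxic WT libraries (0.12) and 0.10 in aerobic WT libraries (0.07). ATG1 was the most variable member in hypoxia, with an SD of 0.64 in set4Δ libraries and 0.47 in WT libraries.

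Cells without SET4 were next set against WT cells in the same condition. In hypoxia 0 of 34 members were called, where 0.817% of 5875 genes were called higher in set4Δ cells and 0.391% lower, and in air 0 of 34 were called, where 0.0172% of 5814 genes were called higher and 0.0344% lower in set4Δ cells (limma, adjusted p at most 0.05). At an unadjusted p under 0.05 limma gave 1 member in hypoxia, ATG18, beside 13.2% of all genes, and 1 in air, ATG22, beside 4.82%. The median log2 difference of the members was 0.07 in hypoxia and -0.02 in air, and that of all genes -0.01 in hypoxia and 0.00 in air. The shares of all genes called in hypoxia depend on the fit. With the replicate number as a block, 238 of 5875 genes were called higher in set4Δ cells and 198 lower, and 0 members.

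ATG18 held 1209, 1187 and 1304 normalized counts in hypoxic set4Δ libraries, against 1145, 1049 and 1075 in hypoxic WT libraries, in the table that holds both. The groups did not overlap, and the difference was 0.18 (95% interval 0.00 to 0.35, adjusted p = 0.37 in limma). Without the third hypoxic libraries it was 0.13 (95% interval -0.05 to 0.31). The 95% intervals that then left out 0 were those of ATG36 (0.27, 0.08 to 0.45), ATG7 (0.21, 0.01 to 0.40) and ATG34 (-0.21, -0.41 to -0.01). None of these passed the test, with adjusted p-values from limma of 0.10 for ATG36, 0.20 for ATG7 and 0.20 for ATG34. ATG22 held 721, 804 and 802 normalized counts in aerobic set4Δ libraries, against 883, 934 and 841 in aerobic WT libraries. These were separate too, lower in set4Δ cells, with a difference of -0.19 (95% interval -0.34 to -0.05, adjusted p = 0.99 in limma). ATG22 was the only member with separate groups in air, where 5.50% of all genes were separate and lower and 4.52% separate and higher. In hypoxia the genotypes did not overlap for 7 members, beside 19.6% of all genes, with set4Δ libraries above all WT libraries for ATG17, ATG18, ATG20, ATG21 and ATG31 and below them for ATG8 and ATG11.

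A difference that misses the threshold does not make the genotypes alike, and the intervals of ATG1 and ATG41 were the widest. In the hypoxic table ATG1 held 10561, 10167 and 4865 normalized counts in set4Δ libraries, against 7446, 10821 and 5615 in WT libraries, and the difference was 0.07 (95% interval -0.77 to 0.91, adjusted p = 0.96 in limma). ATG41 held 13145, 12455 and 6187 normalized counts in set4Δ libraries, against 8986, 12409.7 and 7457 in WT libraries, with a difference of 0.09 (95% interval -0.67 to 0.86, adjusted p = 0.94 in limma). The third library was the lowest of its group for both genes and both genotypes, and without it the difference was 0.21 for ATG1 and 0.28 for ATG41, neither of which passed. For all 34 members in hypoxia and all 34 in air the 95% interval stayed within a 2-fold difference either way, and within 1.5-fold for 30 in hypoxia and 33 in air. In air the interval of ATG39 reached farthest, with a difference of 0.23 (95% interval -0.14 to 0.61, adjusted p = 0.99 in limma).

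Among the cargo receptors the difference in hypoxia ran from -0.12 for ATG34 to 0.23 for ATG36, and in air from -0.11 for ATG34 to 0.23 for ATG39. ATG8 differed by -0.11 in hypoxia and -0.03 in air, and ATG32 by 0.03 in hypoxia and 0.02 in air. In the Atg12 system the difference in hypoxia ran from -0.18 for ATG10 to -0.03 for ATG5, and without the third libraries from -0.46 for ATG10 to 0.06 for ATG5, and none of the 4 passed in either fit.

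The difference of the responses, set4Δ minus WT, was fitted over all 12 libraries. It passed for 0 of 34 members, where 0.929% of 6025 genes passed with a larger value in set4Δ cells and 0.432% with a smaller one (limma, adjusted p at most 0.05). At an unadjusted p under 0.05 limma gave 2 members, ATG17 and ATG22, beside 12.1% of all genes. The median over the members was 0.04, and the values ran from -0.39 for ATG10 to 0.42 for ATG17. The interval stayed within 2-fold for 33 of 34 members, with 0.14 (95% interval -0.74 to 1.02, adjusted p = 0.94 in limma) for ATG41 as the exception. Without the third hypoxic libraries the difference was 0.26 for ATG1, against 0.10 with all libraries, and 0.33 (95% interval -0.22 to 0.88, adjusted p = 0.53 in limma) for ATG41, whose interval then lay within 2-fold. The exception was then ATG10, with -0.66 (95% interval -1.23 to -0.09, adjusted p = 0.19 in limma). The largest response, that of ATG39, differed by -0.09 (95% interval -0.62 to 0.44, adjusted p = 0.94 in limma).

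**Figure D4:**
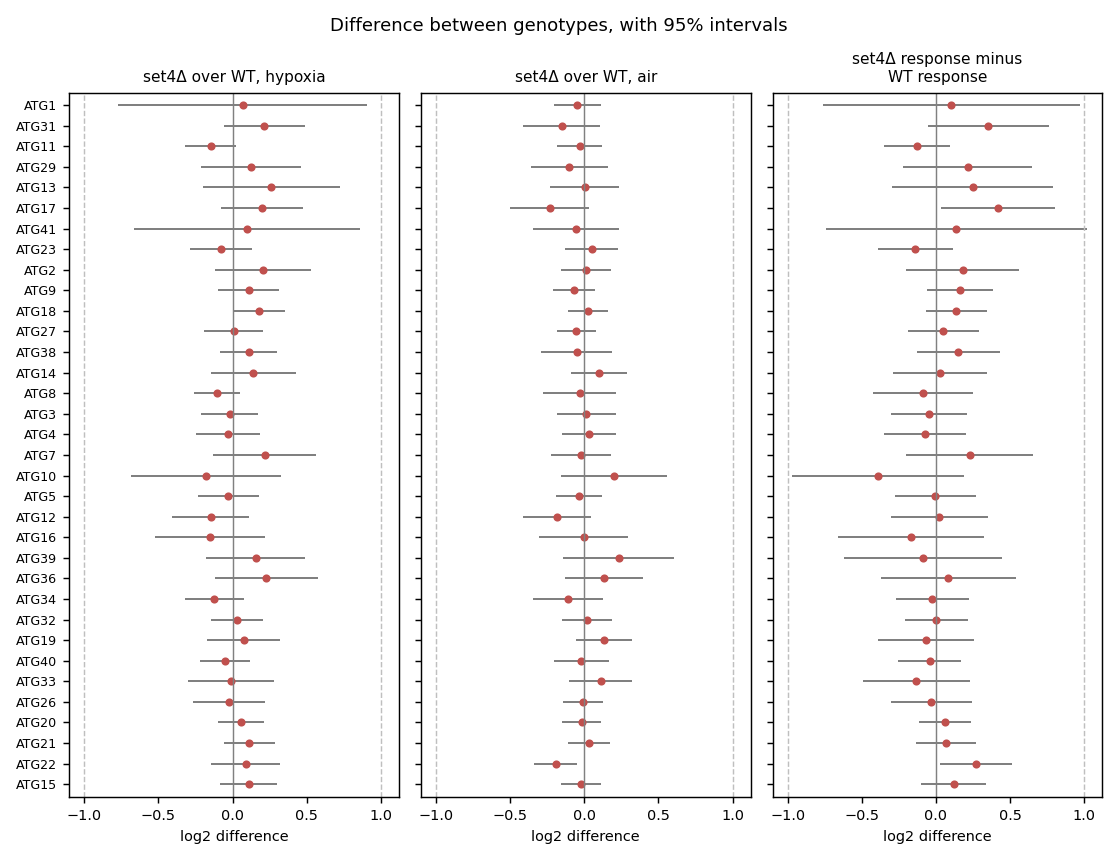
Log2 difference between genotypes for the 34 members with its 95% interval (n = 3 libraries a group), for set4Δ over WT in hypoxia, set4Δ over WT in air, and the set4Δ response minus the WT response. Dashed lines mark a 2-fold difference, which the intervals with all libraries reach only for ATG41 in the right panel, at an upper bound of 1.02.

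Genes of the pathway without an ATG name in the tables were taken as 5 lists with 65 genes, all of which were tested. In set4Δ cells 12 of the 65 were called higher in hypoxia and 2 lower, and in WT cells 8 were called higher and 1 lower, beside 18.6% of all genes higher and 15.5% lower in set4Δ cells and 18.1% higher and 14.4% lower in WT cells. The median log2 fold change was 0.20 in set4Δ cells and 0.15 in WT cells. Between set4Δ and WT cells 0 of the 65 were called in hypoxia and 0 in air (limma), with 9 in hypoxia and 2 in air at an unadjusted p under 0.05, beside 13.2% of all genes in hypoxia and 4.82% in air.

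None of the 6 core partners reached 2-fold, beside 18.6% of all genes higher in set4Δ cells and 18.1% in WT cells. VPS34, the lipid kinase, had 0.22 in set4Δ cells and 0.10 in WT cells on the log2 scale, VPS15, its regulatory kinase, fell by 0.60 in set4Δ cells and 0.55 in WT cells, and VAC8, which anchors the assembly site to the vacuole, fell by 0.82 in set4Δ cells and 0.86 in WT cells. At any size, 39.6% of all genes were called higher and 39.8% lower in set4Δ cells, and 40.0% and 39.5% in WT cells. The 16 genes of fusion with the vacuole were split. By the same rule 6 were higher and 4 lower in set4Δ cells, and 6 higher and 8 lower in WT cells. Of their SNARE genes, VAM3, VAM7, VTI1 and NYV1 rose in both genotypes and YKT6 fell, with 0.90 in set4Δ cells and 0.77 in WT cells for NYV1, while the Rab GTPase gene YPT7 fell by 0.85 in set4Δ cells and 0.82 in WT cells. MON1, a subunit of the exchange factor of Ypt7, was the one called at 2-fold, in set4Δ cells, with 1.06 (SE 0.08, adjusted p = 7.3e-06 in limma), against 0.66 (SE 0.08, adjusted p = 6.4e-05 in limma) in WT cells. The difference of its responses is not given here, and 0 of the 16 fusion genes were called between the genotypes in hypoxia or in air.

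Among 10 vacuolar enzymes and cargo proteins, 4 were called higher and 1 lower in each genotype. The shares of all genes were 18.6% higher and 15.5% lower in set4Δ cells, and 18.1% and 14.4% in WT cells. AMS1, the alpha-mannosidase carried by Atg19 and Atg34, held 7985, 7609.9 and 14905 normalized counts in hypoxic set4Δ libraries, against 959, 908 and 959 in aerobic ones, and 7498, 6228 and 12262 in hypoxic WT libraries, against 891, 1056 and 1039.8 in aerobic ones. All hypoxic libraries lay far above the aerobic ones, and the third was the highest in both genotypes. AMS1 rose by 3.36 (SE 0.24, adjusted p = 6.6e-06 in limma) in set4Δ cells and 3.06 (SE 0.22, adjusted p = 4.4e-06 in limma) in WT cells on the log2 scale. PRB1, the vacuolar proteinase B, rose by 1.91 in set4Δ cells and 2.15 in WT cells, ATH1, the acid trehalase, by 1.76 in set4Δ cells and 1.76 in WT cells, and APE1, the aminopeptidase that is the main cargo of the Cvt route, by 1.75 in set4Δ cells and 1.56 in WT cells. CPS1, a carboxypeptidase, fell by 1.31 in set4Δ cells and 1.61 in WT cells. PEP4, the proteinase A that activates the others, did not pass, with -0.02 in set4Δ cells and -0.01 in WT cells.

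Of 21 signalling genes, 2 were called higher and 1 lower in set4Δ cells, and 1 higher and 0 lower in WT cells. Among all genes 18.6% were called higher and 15.5% lower in set4Δ cells, and 18.1% and 14.4% in WT cells. YAK1, a kinase held back by protein kinase A, rose by 1.17 in set4Δ cells and 1.24 in WT cells, and PHO80, a cyclin of the Pho85 kinase, by 1.01 in set4Δ cells and 0.97 in WT cells. SNF4, a subunit of the Snf1 kinase, fell by 1.04 in set4Δ cells and 0.93 in WT cells. TOR1, the kinase of TORC1, had 0.16 in set4Δ cells and 0.12 in WT cells.

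Of 12 transcription regulators of ATG genes, 5 were called higher in set4Δ cells and 3 in WT cells, and none lower. Among all genes 18.6% were called higher and 15.5% lower in set4Δ cells, and 18.1% and 14.4% in WT cells. GAT1, a GATA activator, held 2249, 2219 and 1894 normalized counts in hypoxic set4Δ libraries, against 461, 563 and 469.6 in aerobic ones, and 2252, 2263 and 2129 in hypoxic WT libraries, against 473, 476 and 542 in aerobic ones. Both genotypes thus had separate groups, with a fold change of 2.09 (SE 0.11, adjusted p = 1.4e-06 in limma) in set4Δ cells and 2.16 (SE 0.08, adjusted p = 1.5e-07 in limma) in WT cells. GLN3, its relative, rose by 1.32 in set4Δ cells and 1.25 in WT cells, and GIS1, a zinc finger factor of the stress response element, by 1.29 in set4Δ cells and 1.20 in WT cells. MSN2 and MSN4, the general stress activators, were called at 2-fold in set4Δ cells, with 1.15 for MSN2 and 1.19 for MSN4, and passed at any size in WT cells, with 0.66 for MSN2 and 0.87 for MSN4. UME6, the repressor of ATG8, rose by 0.41 in set4Δ cells and 0.80 in WT cells. Between set4Δ and WT cells 0 of the 12 regulators were called in hypoxia and 0 in air. The difference of their responses is not given here, so unequal calls in the 2 genotypes do not show a difference between them.

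**Figure D5:**
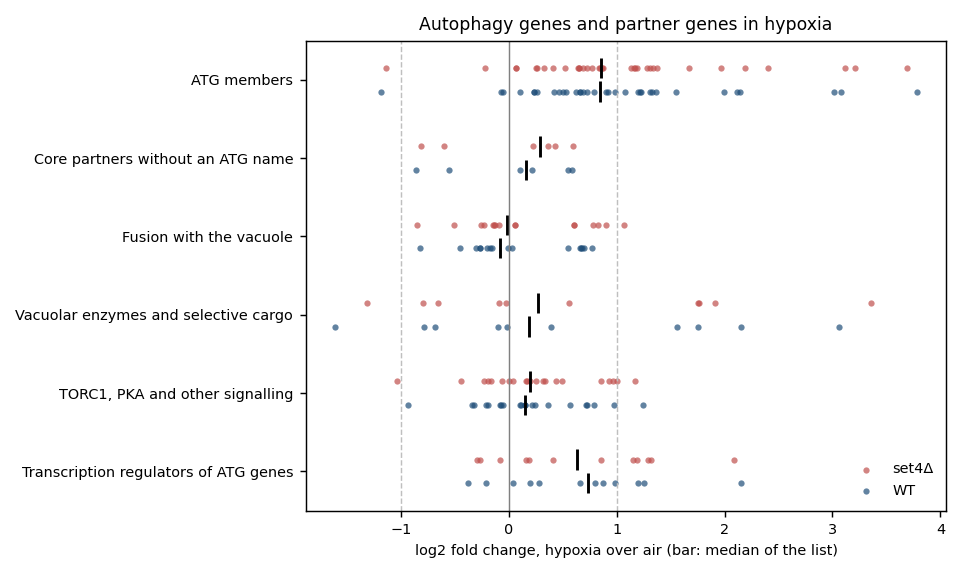
Log2 fold change, hypoxia over air, of the 34 members and of the genes of 5 pathway lists, in set4Δ cells (red, upper row) and WT cells (blue, lower row), with a bar at the median of each list and dashed lines at 2-fold. The medians of the members, 0.86 in set4Δ cells and 0.85 in WT cells, lie farther to the right than those of the 5 lists.

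The R64 annotation gives an ATG name to 5 further genes that the tables list under another name, which were not members and of which SNX4 and VPS30 also stand in the list of core partners. In set4Δ cells 3 of them passed upward and 1 downward at any size, and in WT cells 2 passed upward and none downward. There was no call at 2-fold. At any size 39.6% of all genes passed upward and 39.8% downward in set4Δ cells, and 40.0% and 39.5% in WT cells. VPS30, or ATG6, a subunit of the phosphatidylinositol 3-kinase complex, had 0.37 in set4Δ cells and 0.21 in WT cells. SNX4, or ATG24, the sorting nexin that pairs with Atg20, had 0.43 in set4Δ cells and 0.55 in WT cells. YBR139W, or ATG42, a vacuolar carboxypeptidase, had 0.27 in set4Δ cells and 0.00 in WT cells. YIL156W-B, or ATG44, which codes for a mitochondrial protein of mitophagy, had -0.20 in set4Δ cells and -0.14 in WT cells. YIL024C, or ATG45, was placed with the cargo receptors by role and had 0.39 in set4Δ cells and 0.49 in WT cells.

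The members lie on 13 of the chromosomes of the R64 assembly, and the one nearest to a chromosome end is ATG13, at 38.6 kb. ATG13 is the only member inside the distance from a chromosome end by which the study defined subtelomeric genes.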

How the data were processed

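Total RNA depleted of ribosomal RNA was sequenced from stranded libraries. Reads were checked with FastQC, trimmed with Trimmomatic 0.36, aligned with STAR 2.5.2b and counted with featureCounts of Subread 1.5.2, per the labels and the study's methods (genome build not given in the sources used here). The authors deposited 4 tables of normalized counts, a signal made by dividing the reads of each gene by a DESeq2 size factor. Columns of the authors' own fold changes and p-values in these tables were not used. In the table of aerobic libraries 1 WT column ran out of step with the gene names (5825 values for 5822 genes), so the copy of that library in the WT response table was used, and 8 genes were left out.

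Each table was fitted with limma 3.58.1 in R 4.3.3 on log2(value + 1), with a trend of the variance along the mean. The minimum group mean was 10, which removed no gene, and p-values were adjusted over the table by the Benjamini-Hochberg method. For the difference of responses and for RPKM, whole reads of the 12 libraries (each value within 0.01 of a whole read) were scaled by TMM and fitted as log2 CPM. Groups came from the sample titles. Replicate numbers 1 and 3 are exchanged between the response tables and the genotype tables, so libraries of the genotype tables were matched by their reads to those of the response tables and carry the numbers given there, which follow the sample titles. The fits were tested on simulated data, in which each library was drawn independently and all genes of a table had the same dispersion. That test therefore does not cover the deviation shared between hypoxic libraries or the wider spread of genes such as ATG1. Upstream sequences, gene overlaps and repeats came from the RefSeq R64 genome, read in Python 3.11.15.

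Each member is named with its role and value. Values in every library are given for the Atg1 kinase, Atg8 conjugation and cargo receptor groups, for up to 5 members with the largest WT changes in each direction, and for members called between genotypes. From each pathway list up to 4 called genes with the largest change were to be named, and other pathway genes, and members with values in every library in the genotype comparisons, were chosen after their values were seen. The members, lists and roles were chosen with earlier results of these data known. With 3 libraries against 3, an exact permutation test of 1 gene cannot give a p below 0.1, so the limma fit over all genes was used. Alternatives were other pseudocounts, filters, scalings, the replicate block and leaving out libraries.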

Additional observations from a re-analysis of the deposited data

How the results depend on the processing

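Without a fold minimum 28 members were higher in the set4Δ response and 28 in the WT response, against 15 in set4Δ cells and 14 in WT cells at 2-fold. Leaving out each library in turn gave 15 higher in the set4Δ response and 14 to 15 in the WT response, 1 lower in each, and medians of 0.82 to 0.93 in set4Δ cells and 0.82 to 0.88 in WT cells. Quantile normalization, which moved the median of all genes to -0.13 in set4Δ cells and -0.14 in WT cells, gave 14 higher in set4Δ cells (ATG3 lost) and 12 in WT cells (ATG3 and ATG38 lost), with medians of 0.69 in set4Δ cells and 0.64 in WT cells. At any size it gave 27 higher and 3 lower in set4Δ cells and 23 higher and 3 lower in WT cells, against 28 and 1 in each. Scaling to equal totals gave 15 higher in set4Δ cells and 16 in WT cells (ATG4 and ATG31 added) at 2-fold. No member called at 2-fold changed direction under any alternative run, and of those that passed only at any size, ATG14 in WT cells turned to -0.14 under quantile normalization. Between genotypes, and for the difference of responses, 0 members were called under each alternative run, with lowest adjusted p-values from limma of 0.101 in hypoxia, 0.485 in air and 0.142 for the difference.

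The replicate numbers were not taken to pair the libraries, since the correlation of deviations of same-numbered libraries ran from -0.28 to 0.745 over the 4 comparisons. Between the hypoxic genotypes alone it was 0.03, 0.732 and 0.745 for libraries 1, 2 and 3. The main fit in hypoxia had no term for this shared deviation. The deviation thus stayed in the spread from which the intervals and the shares of all genes called were computed. With the replicate number as a block the member counts were 15 higher and 1 lower in the set4Δ response, 14 higher and 1 lower in the WT response, and 0 in hypoxia, in air and in the difference. Among all genes in hypoxia the block gave 238 higher and 198 lower in set4Δ cells, against 48 and 23 without it, and leaving out the library numbered 3 of both genotypes, an alternative chosen after seeing the data, gave 212 higher and 176 lower. For the difference of responses that alternative gave 170 larger and 121 smaller in set4Δ cells, against 56 and 26 with all libraries. The cause was not tested.

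The count tests planned with edgeR and DESeq2 were not run. With 3 libraries a group, the intervals given hold the differences that these data do not exclude, and no detection limit was computed. For ATG10, the member with the fewest reads, 56 reads in a library limit the precision.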
